A study of Mus musculus with 18 samples.

Results

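The 41 genes described here encode the machinery that copies DNA and the factors that prepare S phase, the stage of the cell cycle in which the genome is duplicated. They form a functional list by gene name, which was drawn up with earlier results of these data known. All 41 were found among the 15698 named genes of the deposited table. Each member is followed across naive CD4+ T cells, T cells activated with 4 doses of peptide, and the antigen-presenting cells, whose level is given beside that of the T cells.

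The study measured messenger RNA by sequencing of transcript 3′ ends in 18 mouse libraries, which form 6 groups of 3. Naive CD4+ T cells came from spleen and lymph node. The activated groups began, per the design text, as naive CD4+ T cells with the transgenic T cell receptor 5CC7, which recognises the peptide pPCC, a cytochrome c peptide. These cells spent 4 days with P13.9 cells that carried pPCC at 0.01, 0.1, 1.0 or 10 µM, so that the dose set the strength of the receptor signal, and the question was how that strength directs differentiation. The sixth group was P13.9 alone, a fibroblast line that presents the peptide. No label gives an age, sex or strain, and whether the naive sample carried the same transgene is not stated. Nothing in the labels says that the 3 samples of a group were separate animals or cultures, so the spread behind each p-value is that between these samples and may be technical. All activated cells were taken at 1 time, day 4, and the labels mention no step that removed P13.9 cells before extraction.

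Resting lymphocytes sit outside the cell cycle and hold little of the replication machinery. When a naive T cell meets its antigen it grows for about a day and then divides rapidly, and E2F transcription factors, released from the retinoblastoma protein, switch on the genes for origin licensing, DNA synthesis and nucleotide supply. At each origin the licensing factors load the MCM helicase, Cdc45 and the GINS complex turn it into an active motor, polymerases copy both strands around the sliding clamp PCNA, and chromatin factors restore nucleosomes and DNA methylation behind the fork.

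Reads per library were recovered from the steps in the normalized values. Named genes held 27789 to 97757 reads in the naive libraries, 156941 to 733009 in the activated ones and 201627 to 352001 in P13.9. On the normalized scale 1 read counted for 2.17 to 6.55 in the naive libraries and 0.1675 to 0.872 in the others, so a low naive value rests on 1 or a few reads. The members held 88, 85 and 159 reads in naive libraries 1, 2 and 3. T cell markers summed to 836 to 1515 in the T cell libraries and 13.7 to 26.1 in P13.9, whereas fibroblast markers summed to 658 to 757 in P13.9. Among activated cells fibroblast markers summed to 172 to 226 at 0.01 µM, 69.8 to 95.3 at 0.1 µM, 49.8 to 72.4 at 1.0 µM and 22.9 to 31.8 at 10 µM. From 5 such markers the P13.9 share of RNA was estimated as 29.4% ± 4.40 at 0.01 µM (SD, n = 3), falling to 6.03% ± 0.922 at 0.1 µM, then 3.79% ± 1.15 at 1.0 µM and finally 1.36% ± 0.464 at 10 µM. Naive cells, which the design text does not place with P13.9, gave 5.20% ± 0.203 by the same measure, and fibroblast markers summed to 62.8 to 74.2 there. In each naive library that estimate rests on 1 or a few reads of a marker, so its SD understates its error. It is no firm background for the deeper activated libraries. Myeloid markers summed to 85.2 to 126 in naive libraries and to at most 11.4 elsewhere. The numbers at the end of the sample descriptions fall into a range shared by naive, P13.9, 0.01 and 1.0 µM and another shared by 0.1 and 10 µM, and their meaning is not given.

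Because the genes are known as a group for shared control by E2F, their promoters were read from the RefSeq table for GRCm38.p6, from 250 bases before to 50 bases after the start site. An entry was found for 34 of the 41 members, and none for Mcm4, Gmnn, Gins1, Gins2, Rfc2, Pole and Prim2. The E2F pattern searched was any of the 8-base words TTTCCCGC, TTTGGCGC, TTTCGCGC and TTTGCCGC, on either strand, with overlapping matches counted separately. It stood in 14 of 34 members (41.2%), against 2.605% of all 27025 genes with a promoter in the table and 5.45% of the 5380 such genes among those tested below. The 14 were Mcm3, Mcm5, Mcm6, Mcm7, Cdc6, Cdt1, Gins3, Pola1, Pold1, Rfc3, Lig1, Dnmt1, Uhrf1 and Hells. A gene counted if any of its listed promoters matched. In Lig1, Dnmt1 and Uhrf1 the promoter at the start of the gene held no match, and a promoter further inside the gene did. The 4 promoters shown belong to helicase and licensing genes that were higher at the strongest dose and to Hells, which moved the other way, and capitals mark the E2F matches.
Mcm3: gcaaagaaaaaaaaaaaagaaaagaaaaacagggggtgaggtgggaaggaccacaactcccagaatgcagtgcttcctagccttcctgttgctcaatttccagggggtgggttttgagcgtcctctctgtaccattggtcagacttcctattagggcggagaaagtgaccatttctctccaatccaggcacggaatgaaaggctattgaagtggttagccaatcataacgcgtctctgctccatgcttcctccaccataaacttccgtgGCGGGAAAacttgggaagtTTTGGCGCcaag
Mcm6: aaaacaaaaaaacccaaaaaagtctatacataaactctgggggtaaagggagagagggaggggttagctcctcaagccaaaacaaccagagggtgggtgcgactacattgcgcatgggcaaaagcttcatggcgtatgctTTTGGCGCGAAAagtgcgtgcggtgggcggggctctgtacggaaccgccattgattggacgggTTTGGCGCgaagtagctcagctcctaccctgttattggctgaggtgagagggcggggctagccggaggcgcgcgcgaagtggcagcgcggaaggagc
Cdt1: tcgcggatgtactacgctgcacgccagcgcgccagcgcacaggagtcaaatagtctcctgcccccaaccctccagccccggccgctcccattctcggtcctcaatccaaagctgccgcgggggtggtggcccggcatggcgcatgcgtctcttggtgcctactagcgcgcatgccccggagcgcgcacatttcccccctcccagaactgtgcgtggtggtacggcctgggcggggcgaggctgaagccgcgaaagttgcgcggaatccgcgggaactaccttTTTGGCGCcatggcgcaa
Hells: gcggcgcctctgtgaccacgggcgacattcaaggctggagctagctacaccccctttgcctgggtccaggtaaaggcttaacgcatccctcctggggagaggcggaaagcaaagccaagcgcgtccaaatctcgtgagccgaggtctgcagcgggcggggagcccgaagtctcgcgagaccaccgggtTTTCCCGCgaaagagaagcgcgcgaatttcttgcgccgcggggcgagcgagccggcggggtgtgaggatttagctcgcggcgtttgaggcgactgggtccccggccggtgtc
The Mcm3 sequence is chr1:20820263-20820562 on the minus strand and holds 2 matches, both within the 50 bases after the start site. In Mcm6, at chr1:128359656-128359955 on the minus strand, 3 matches lie upstream of the start and the first pair overlap as 1 run of capitals. Cdt1 lies at chr8:122567765-122568064 on the plus strand with 1 match, and Hells at chr19:38930740-38931039 on the plus strand with 1 match whose first base is at −62 from the start. A match is a description of these letters, and Hells, with a match of the same kind, differs in its dose pattern from Mcm3, Mcm6 and Cdt1. The CCAAT box stood in 67.6% of the members' promoters and 41.1% of all genes, and TTTGAA, the core of the CHR element found in genes of mitosis, in 17.6% and 20.2%. Among the tested genes the shares were 43.1% for CCAAT and 14.5% for TTTGAA, so that for TTTGAA the members lay between these backgrounds.

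Replication genes took a small share of the naive transcriptome and a larger one in every activated library. Members held 317, 160 and 163 of every 100000 named reads in naive libraries 1, 2 and 3. The share was 724, 705 and 644 at 0.01 µM, 868, 832 and 858 at 0.1 µM, 805, 899 and 874 at 1.0 µM, and 1035, 1037 and 1038 at 10 µM. Each of the 12 activated libraries thus stood above each naive library, the 10 µM libraries stood above all others, and 0.1 and 1.0 µM overlapped. P13.9 cells held 300.1, 299 and 311, below every activated library. As bulk values, these cannot tell fewer replicating cells from less replication RNA per cell.

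**Figure D1:**
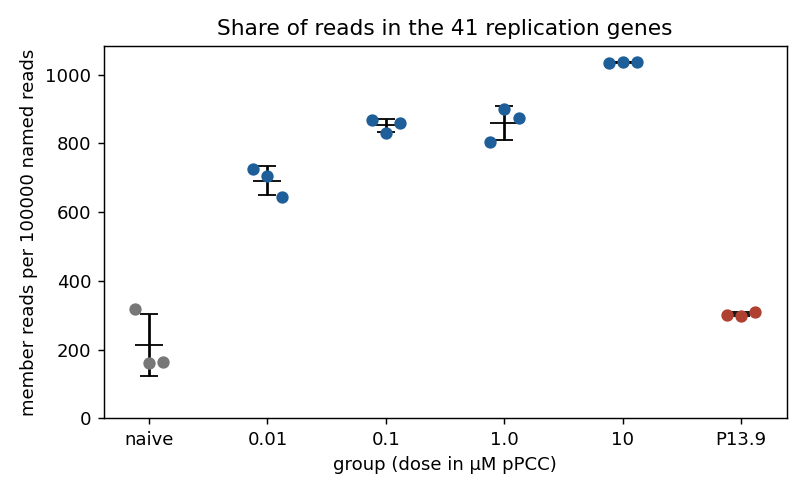
Reads in the 41 replication genes per 100000 reads in named genes, for each of the 18 libraries. Points are libraries and the bar with whiskers is the mean ± SD of 3. The 10 µM libraries lie between 1035 and 1038, above all others, and the naive and P13.9 libraries lie below the activated ones.

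Tests used limma on log2(value + 1), so that a log2 change understates the change of genes with low values, and a gene was called at a Benjamini-Hochberg adjusted p below 0.05. The 15 T cell libraries entered 1 fit of 7264 genes, in which 40 members passed the filter, which asked for 3 or more libraries at a value of 5 or higher. Gins3, the exception, encodes a subunit of the GINS complex. It stood at 6.55, 7.81 and 0 in naive cells, 3.01, 3.48 and 1.35 at 0.01 µM, 2.13, 1.74 and 2.90 at 0.1 µM, 1.57, 4.68 and 1.54 at 1.0 µM, 3.95, 3.08 and 2.87 at 10 µM, and 2.30, 0 and 0.884 in P13.9. These groups overlapped, and with 3 naive reads in all the ratio of 10 µM to naive was 0.944 (95% counting interval 0.300 to 4.78).

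At 10 µM against naive cells, 33 of 40 members were higher and none was lower. Over all tested genes 24.3% were called higher and 32.8% lower. The members' median change was 1.99 on the log2 scale, beside −0.07 over all 7264 genes. At the lower doses, against the same naive libraries, 31 members were higher at 1.0 µM where 23.3% of all genes were, 32 at 0.1 µM where 24.9% were, and 26 at 0.01 µM where 21.7% were. The median changes were 1.71, 1.70 and 1.38 in that order. Prim2 was the only member called lower, at 1.0 µM, where 31.4% of all genes were lower. The 4 comparisons share the naive libraries and are not independent of each other.

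**Figure D2:**
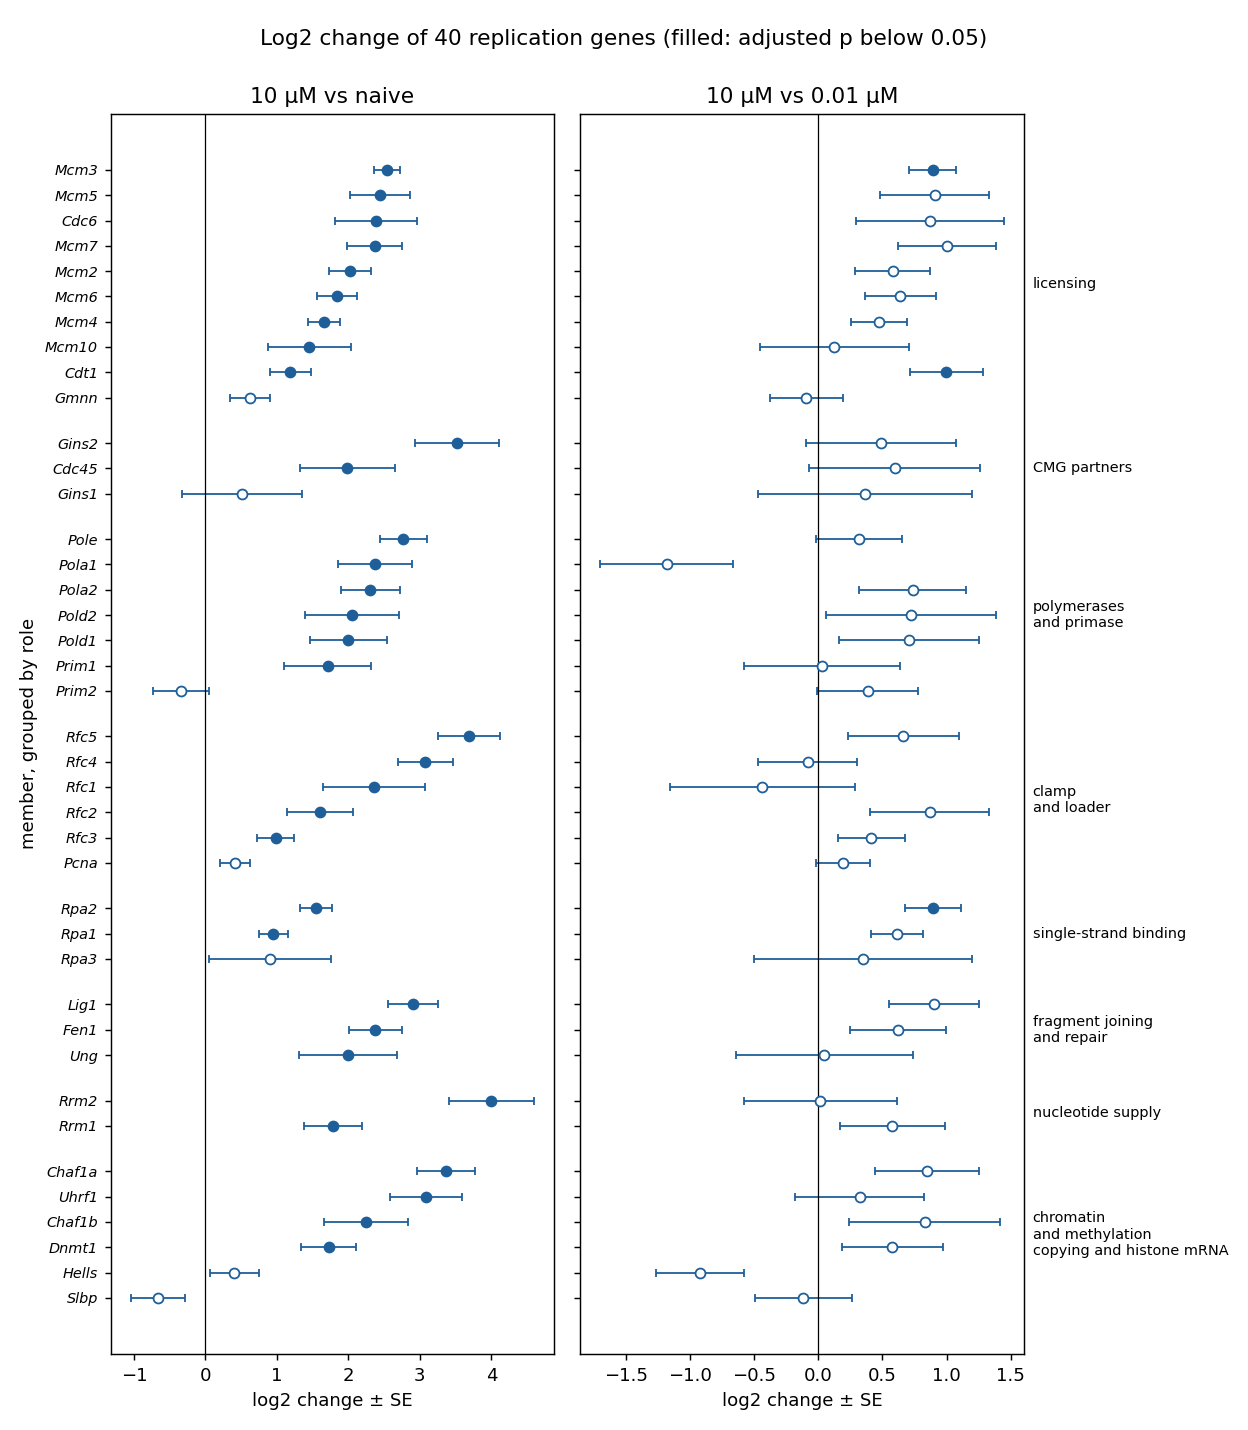
Log2 change ± SE of the 40 tested members at 10 µM against naive cells (left) and against 0.01 µM (right), grouped by role. Filled points have an adjusted p below 0.05 in limma: 33 on the left and 3 on the right.

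Of the 33 calls at 10 µM, 28 held under all 13 alternatives run. Single libraries ended the others: Cdc45 without library C of 10 µM, Rfc1 without naive 3, Ung without naive 2 or library C of 10 µM, Prim1 without naive 2, naive 3 or library A or C of 10 µM, and Mcm10 without naive 3 or any library of 10 µM. The highest adjusted p over these alternatives at 10 µM was 0.199, for Mcm10. Fewer calls held under all alternatives at the lower doses: 22 of 32 at 1.0 µM, 21 of 32 at 0.1 µM and 18 of 26 at 0.01 µM. Cdt1 and Pold2 each lost their calls at 0.1 and 1.0 µM under 7 of 13. Pola1 lost its call at 0.1 µM under 11 of 13. In the naive group 3 members had no read, 13 had 1 to 3 and 25 had 4 or more. With the 3 members at 0 set at their lower bound the median change at 10 µM was 1.81. With edgeR the median of all genes was 0.33 and that of the members 2.71, so that the members' median lay 2.38 above that of all genes, in place of 2.06 in limma. With pseudocount 5 the members' median was 1.18 and lay 1.31 above that of all genes (−0.13). The share of called genes that were higher went from 42.6% to 54.0% with edgeR and to 54.1% with quantile normalization.

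Of the 10 licensing genes, 9 were called higher at 10 µM than in naive cells, where 24.3% of all genes were. At 1.0 µM the count was 9, at 0.1 µM it was 10 and at 0.01 µM it was 8. The all-gene shares at those doses were 23.3%, 24.9% and 21.7%. Mcm3, a subunit of the hexameric MCM helicase, had the smallest p of the members. Its values were 19.7, 11.7 and 13.0 in naive cells, 49.2, 47.3 and 45.2 at 0.01 µM, 77.4, 75.8 and 76.6 at 0.1 µM, 66.1, 81.9 and 77.5 at 1.0 µM, 94.1, 90.8 and 80.8 at 10 µM, and 13.8, 21.4 and 26.1 in P13.9. Every activated library stood above every naive and P13.9 library, the 0.01 µM libraries were the lowest of the activated ones, and 0.1 and 1.0 µM overlapped. The change from naive cells was 2.53 ± 0.18 at 10 µM (adjusted p = 2.17e-08) and 1.64 ± 0.18 at 0.01 µM (adjusted p = 2.77e-06).

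The other MCM subunits rose as well. Mcm7 rose by 2.37 ± 0.38 (adjusted p = 8.97e-05), Mcm2 by 2.02 ± 0.29, Mcm6 by 1.84 ± 0.28, Mcm4 by 1.66 ± 0.22 and Mcm5 by 2.44 ± 0.42 at 10 µM against naive cells. Mcm5 shows the limit of the naive data. It stood at 52.4, 11.7 and 8.66 there, against 51.6, 57.0 and 51.6 at 0.01 µM, 85.7, 105 and 87.4 at 0.1 µM, 81.4, 105 and 89.2 at 1.0 µM, 103, 103 and 97.1 at 10 µM, and 26.8, 24.7 and 23.4 in P13.9. The first naive library, which has 27789 reads, reached the 0.01 µM level, and the other two stood far below it.

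Cdt1, which loads the helicase together with Cdc6, behaved differently in the presenting cells. Its values were 13.1, 27.3 and 39.0 in naive cells, 24.1, 26.9 and 32.7 at 0.01 µM, 39.6, 47.9 and 35.2 at 0.1 µM, 39.9, 40.1 and 42.4 at 1.0 µM, 60.7, 56.5 and 52.1 at 10 µM, and 41.4, 53.5 and 40.7 in P13.9. The naive libraries overlapped those at 0.01 and 0.1 µM, and P13.9 overlapped 0.1, 1.0 and 10 µM and stood above 0.01 µM and the naive cells. Cdt1 was higher at 10 µM than in naive cells (1.19 ± 0.29, adjusted p = 0.00253) and not called at 0.01 µM (0.19 ± 0.29, adjusted p = 0.606). Cdc6 rose from 6.55, 7.81 and 0 in naive cells to 21.5, 23.0 and 16.5 at 10 µM (2.38 ± 0.58, adjusted p = 0.00251), a ratio of 5.69 (counting interval 1.92 to 27.8) on 3 naive reads. Gmnn encodes geminin, which binds Cdt1 and prevents licensing a second time. It was called higher at 0.1 µM (1.00 ± 0.28, adjusted p = 0.00742) and 0.01 µM (0.72 ± 0.28, adjusted p = 0.0473), and not at 10 µM (0.62 ± 0.28, adjusted p = 0.0719). The call at 0.01 µM held under 5 of 13 alternatives and was lost without naive 3 or any library of 0.01 µM, and that at 0.1 µM was lost with array weights.

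Among the partners of the helicase, Gins2 stood at 6.55, 0 and 0 in naive cells, 14.2, 14.4 and 16.5 at 0.01 µM, 23.2, 9.59 and 17.0 at 0.1 µM, 24.7, 18.1 and 20.6 at 1.0 µM, 21.5, 19.5 and 23.8 at 10 µM, and 6.90, 6.69 and 13.3 in P13.9. No activated library overlapped the naive ones, which held 1 read between them. The change at 10 µM was 3.52 ± 0.58 (adjusted p = 0.000115), and the ratio of reads was 19.2 (counting interval 3.41 to 759). Cdc45, which bridges the helicase and GINS, was called at 10 µM (1.99 ± 0.67, adjusted p = 0.0191), and without library C of 10 µM its adjusted p was 0.0532. Gins1 was called at no dose.

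Of the polymerase and primase genes, 6 of 7 were higher at 10 µM than in naive cells, where 24.3% of all genes were. Pole, the catalytic subunit of the leading-strand polymerase, had no read in any naive library. It reached 4.52, 4.17 and 4.72 at 0.01 µM, 4.57, 10.5 and 6.21 at 0.1 µM, 4.20, 3.68 and 5.84 at 1.0 µM, 5.08, 6.51 and 5.94 at 10 µM, and 0, 2.67 and 1.33 in P13.9. Against a floor of 3 reads over the naive group, Pole was at least 1.69-fold higher at 10 µM. The limma call (adjusted p = 5.02e-06) does not test that bound. It rests on naive values that were all 0 and so show no spread. The catalytic subunit of the priming polymerase, Pola1, also had no naive read. It was at least 3.15-fold higher at 0.01 µM and at least 1.27-fold at 10 µM, while its bound at 0.1 µM was 0.933-fold. Prim2, the large subunit of primase, did the opposite of most members. Its values were 13.1, 3.90 and 13.0 in naive cells, 5.53, 4.40 and 5.06 at 0.01 µM, 4.88, 3.49 and 4.14 at 0.1 µM, 3.67, 3.68 and 4.61 at 1.0 µM, 7.06, 6.85 and 6.51 at 10 µM, and 3.83, 4.68 and 2.65 in P13.9. A naive library lay among the activated ones while the other two lay above all of them, on 9 naive reads. It was lower at 1.0 µM (−0.99 ± 0.39, adjusted p = 0.0442), a call that edgeR and DESeq2 did not make and that was lost without naive 1, naive 3 or any library of 1.0 µM, with an adjusted p of up to 0.315. Its partner Prim1, the catalytic subunit, was called higher at all 4 doses, on 1 naive read. Its libraries overlapped the naive ones at every dose, and its call was lost under 7 of 13 alternatives at 0.01 µM and 6 at 1.0 µM, DESeq2 and pseudocount 5 among them. At 0.1 µM it was lost only without naive 2 or naive 3, and the losses at 10 µM are given above.

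Among clamp loader genes the smallest p belonged to Rfc5, with 0, 0 and 2.17 in naive cells, 7.87, 11.6 and 14.2 at 0.01 µM, 10.4, 18.3 and 18.6 at 0.1 µM, 16.8, 10.7 and 13.8 at 1.0 µM, 20.6, 16.4 and 16.9 at 10 µM, and 3.83, 9.36 and 7.07 in P13.9. All activated libraries stood above the naive ones. The change at 10 µM was 3.68 ± 0.43 (adjusted p = 3.90e-06), and the ratio on 1 naive read was 15.6 (counting interval 2.77 to 618). Rfc4, with no naive read, was at least 2.24-fold higher at 10 µM, and Rfc1, Rfc2 and Rfc3 were called there too. Pcna encodes the sliding clamp itself, a common marker of S phase, and was called at no dose against naive cells. It stood at 19.7, 31.2 and 32.5 in naive cells, 30.8, 28.1 and 37.4 at 0.01 µM, 31.1, 27.0 and 29.0 at 0.1 µM, 24.1, 27.7 and 29.5 at 1.0 µM, 33.3, 36.7 and 39.8 at 10 µM, and 1.53, 7.35 and 6.63 in P13.9. The naive libraries overlapped all doses but 10 µM, where the change was 0.41 ± 0.21 (adjusted p = 0.105), and P13.9 stood below every T cell library. Pcna rests on 26 naive reads, more than most members.

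The single-strand binding genes showed the smallest changes from naive cells, with a median of 0.95 at 10 µM. Rpa2 stood at 52.4, 23.4 and 43.3 in naive cells, 57.3, 61.7 and 60.4 at 0.01 µM, 98.2, 111 and 104 at 0.1 µM, 113, 109 and 93.8 at 1.0 µM, 111, 116 and 110 at 10 µM, and 29.9, 30.8 and 37.6 in P13.9. The 0.01 µM libraries formed a level of their own between the naive cells and the 3 higher doses, which overlapped. Against naive cells the change was 1.55 ± 0.22 at 10 µM (adjusted p = 2.79e-05) and 0.65 ± 0.22 at 0.01 µM (adjusted p = 0.0233). The second call was lost without naive 2 or library B or C of 0.01 µM, with an adjusted p of up to 0.0805. Rpa1, the large subunit, rose by 0.95 ± 0.20 at 10 µM (adjusted p = 0.000909), and Rpa3, the small one, was called at no dose.

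In fragment joining and repair, Lig1, the ligase that seals Okazaki fragments, stood at 32.8, 7.81 and 15.2 in naive cells, 78.0, 73.7 and 50.3 at 0.01 µM, 142, 113 and 116 at 0.1 µM, 115, 163 and 104 at 1.0 µM, 123, 129 and 123 at 10 µM, and 9.97, 8.02 and 7.95 in P13.9. The 3 higher doses overlapped, 0.01 µM lay below them, and naive cells lay lower still. The change from naive cells was 2.90 ± 0.35 at 10 µM (adjusted p = 5.44e-06) and 1.99 ± 0.35 at 0.01 µM (adjusted p = 0.000261). Fen1, the nuclease that trims those fragments, rose by 2.38 ± 0.37 and Ung, which removes uracil from DNA, by 1.99 ± 0.69 at 10 µM. Ung lost its call without naive library 2 or library C of 10 µM, where its adjusted p reached at most 0.0756.

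Both subunits of ribonucleotide reductase, which makes the deoxynucleotides for replication, were called higher at every dose. Rrm2, the regulated subunit, stood at 13.1, 0 and 2.17 in naive cells, 49.1, 56.8 and 60.0 at 0.01 µM, 53.4, 52.3 and 48.0 at 0.1 µM, 52.5, 39.4 and 44.9 at 1.0 µM, 55.6, 57.5 and 54.2 at 10 µM, and 23.0, 28.7 and 20.8 in P13.9. The range at 0.01 µM overlapped that of every other dose, and no dose overlapped the naive cells. The change was 4.00 ± 0.60 at 10 µM (adjusted p = 4.41e-05) and 3.98 ± 0.60 at 0.01 µM (adjusted p = 6.06e-05), the largest of the members on this scale at either dose. On 3 naive reads, the ratio at 10 µM was 16.1 (counting interval 5.48 to 78.3). Rrm1, the large subunit, stood at 39.3, 7.81 and 15.2 in naive cells, 45.9, 35.2 and 40.5 at 0.01 µM, 46.6, 37.5 and 51.4 at 0.1 µM, 43.6, 24.1 and 52.6 at 1.0 µM, 58.7, 62.3 and 60.9 at 10 µM, and 21.5, 12.03 and 19.0 in P13.9. The first naive library overlapped the 3 lower doses, and 10 µM stood above all others. The change at 10 µM was 1.78 ± 0.41 (adjusted p = 0.00168) and held under all 13 alternatives. At each lower dose the call was lost without naive 2, with an adjusted p of up to 0.152 over the alternatives, and at 0.01 and 1.0 µM also without naive 3 or library A or C of the dose.

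Of the chromatin genes, 4 of 6 were higher at 10 µM than in naive cells, where 24.3% of all genes were. Chaf1a, the large subunit of the histone chaperone CAF-1, stood at 0, 0 and 2.17 in naive cells, 8.21, 7.65 and 6.41 at 0.01 µM, 15.2, 12.2 and 9.94 at 0.1 µM, 14.2, 15.4 and 14.1 at 1.0 µM, 13.8, 13.0 and 15.5 at 10 µM, and 8.44, 7.35 and 5.30 in P13.9. No activated library overlapped the naive ones, and 0.01 µM stood below the other doses. The change at 10 µM was 3.36 ± 0.40 (adjusted p = 5.02e-06), a ratio on 1 naive read of 12.5 (counting interval 2.22 to 497). Uhrf1, which brings the maintenance methyltransferase to replicated DNA, rose by 3.08 ± 0.50 and Dnmt1, that methyltransferase, by 1.72 ± 0.39. Slbp, whose product binds the stem-loop of histone messages, was not called, and its values were 6.55, 7.81 and 8.66 in naive cells against 4.80, 4.11 and 4.41 at 10 µM (−0.67 ± 0.38, adjusted p = 0.142).

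The comparison of 10 with 0.01 µM asks whether replication genes scale with signal strength once cells are activated. In this fit 3 members were higher and none lower, against 1.90% of all genes higher. These were Mcm3 (0.89 ± 0.18, adjusted p = 0.0073), Rpa2 (0.90 ± 0.22, adjusted p = 0.0204) and Cdt1 (1.00 ± 0.29, adjusted p = 0.0443). The direction was shared more widely, since 34 of 40 members had a positive change, with a median of 0.58 beside −0.03 over all genes. In 26 members all 3 libraries at 10 µM stood above all 3 at 0.01 µM, as in 21.8% of all tested genes, and in 2 they stood below, as in 28.1%. Leaving out any 1 of the 6 libraries left 1 called member, Mcm3.

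**Figure D3:**
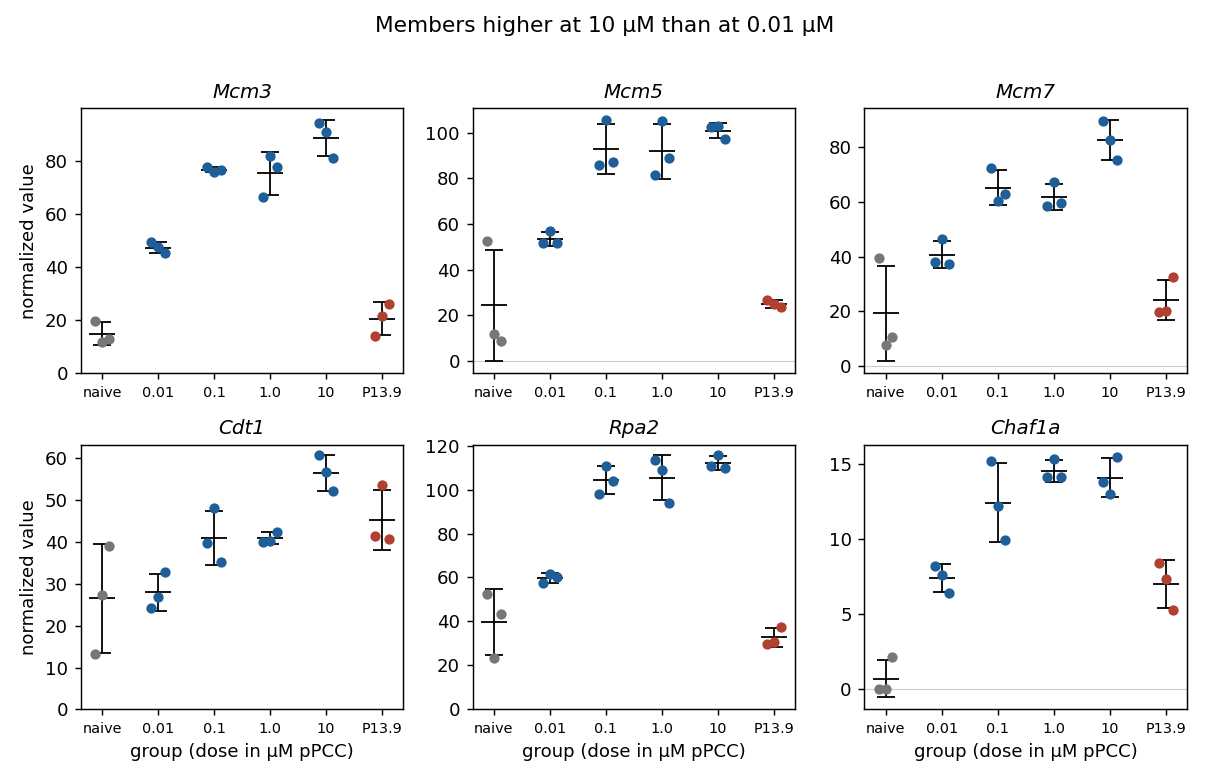
Normalized values of 6 members in each library, by group, with the mean ± SD of 3. In all 6 panels the libraries at 10 µM lie above those at 0.01 µM, and the P13.9 level is shown in red.

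The scattered naive libraries share their spread with the doses in that fit. In a limma fit of the 12 activated libraries alone, 17 members were higher and 1, Hells, was lower, where 10.9% and 16.0% of all genes were. The 17 were Cdc6, Cdt1, Mcm2, Mcm3, Mcm5, Mcm6, Mcm7, Pola2, Pold1, Pold2, Rfc2, Rpa1, Rpa2, Lig1, Chaf1a, Chaf1b and Dnmt1. Mcm7, for one, went from 38.2, 46.4 and 37.4 at 0.01 µM to 89.5, 82.6 and 75.1 at 10 µM (1.00 ± 0.12, adjusted p = 0.000229), with no overlap. On the recovered reads, edgeR called 24 members higher and 2 lower, where 15.5% and 19.3% of all genes were, and DESeq2 called 24 and 2, where 17.2% and 14.9% were. The same 18 genes were called by these 2 tools, by the fit of 12 libraries and by limma with array weights, and the other 8 by all but the fit of 12 libraries. Without any 1 library of these doses the fit of 12 called 14 or 15 members, each of them among its 18.

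The estimated P13.9 share of RNA was lower at each higher dose by mean, and most members had a lower level in P13.9 than in activated cells. Naive cells gave 5.20% by this measure, on 1 or a few reads of a marker in each library. Only the estimate at 0.01 µM stood far above that value, and the background at the depth of the activated libraries was not measured. The P13.9 part of a member's level was taken as the estimated share at a dose times the member's P13.9 mean. At 0.01 µM this part was 3.77% to 47.6% with a median of 15.4%, and at 10 µM 0.0944% to 2.33%. Cdt1 had the largest part. With this part subtracted and the rest rescaled, the members' median change in the fit of 12 libraries was 0.33 in place of 0.58, and 10 members were higher and Hells lower, where 22.1% of all genes were called in either direction. Those 10 were Cdc6, Cdt1, Mcm3, Mcm5, Mcm6, Mcm7, Rpa1, Rpa2, Chaf1a and Chaf1b, with Cdt1 at 1.42 ± 0.17 (adjusted p = 0.000317) and Mcm3 at 0.60 ± 0.10 (adjusted p = 0.00228). In the fit of 15 libraries the subtraction left Cdt1 called higher (adjusted p = 0.00945) and Hells called lower, and ended the calls of Mcm3 (adjusted p = 0.0636) and Rpa2 (adjusted p = 0.0953). That left 2 of 40 members called, where 8.07% of all genes were called in either direction, so the members' share lay below that of all genes. The 2 doses also lie in different ranges of description numbers. With the range as a term beside log10 dose in the activated libraries, a positive slope was called for 3 members, Cdt1, Mcm7 and Mcm3, where 0.922% of all genes had one, and not for Rpa2 (adjusted p = 0.0588).

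Hells encodes a chromatin remodeler of the SNF2 family that acts in DNA methylation, and it ran against most members. It stood at 6.55, 3.90 and 10.8 in naive cells, 18.4, 18.1 and 17.5 at 0.01 µM, 12.8, 8.72 and 9.94 at 0.1 µM, 9.97, 17.1 and 7.99 at 1.0 µM, 9.04, 8.56 and 9.58 at 10 µM, and 6.90, 5.35 and 7.07 in P13.9. The 0.01 µM libraries stood above all others in the series, and 10 µM overlapped the naive range. Against naive cells Hells was called at 0.01 µM (1.32 ± 0.34, adjusted p = 0.00497) and not at 10 µM (0.40 ± 0.34, adjusted p = 0.329). From 0.01 to 10 µM it changed by −0.92 ± 0.34, not called in the fit of 15 libraries (adjusted p = 0.122) and called in the fit of 12 (adjusted p = 0.0139). Since P13.9 had less of it than the 0.01 µM libraries, subtracting the P13.9 part made the change larger (−1.24 ± 0.24, adjusted p = 0.00504 in the fit of 12).

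Pola1, at lower depth, was likewise highest at 0.01 µM among the doses, but its lowest mean fell at 0.1 µM. It stood at 11.7, 9.74 and 10.8 at 0.01 µM, 5.79, 0 and 1.24 at 0.1 µM, 4.20, 8.36 and 5.84 at 1.0 µM, 5.08, 3.08 and 4.60 at 10 µM, and 3.83, 4.68 and 5.74 in P13.9. The 0.01 µM libraries stood above those of every other dose. The change from 0.01 to 10 µM was −1.18 ± 0.52 (adjusted p = 0.197), and Pola1 was called lower by edgeR (adjusted p = 0.00567) and DESeq2 (adjusted p = 0.0363). Its partner Pola2 went the other way, from 3.85, 3.25 and 3.04 to 5.65, 6.51 and 6.70 (0.74 ± 0.42, adjusted p = 0.332 in the fit of 15 and 0.0361 in the fit of 12). Rfc1, Rfc4, Gmnn and Slbp also had negative changes, from −0.44 to −0.08, with overlapping libraries and no call.

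**Figure D4:**
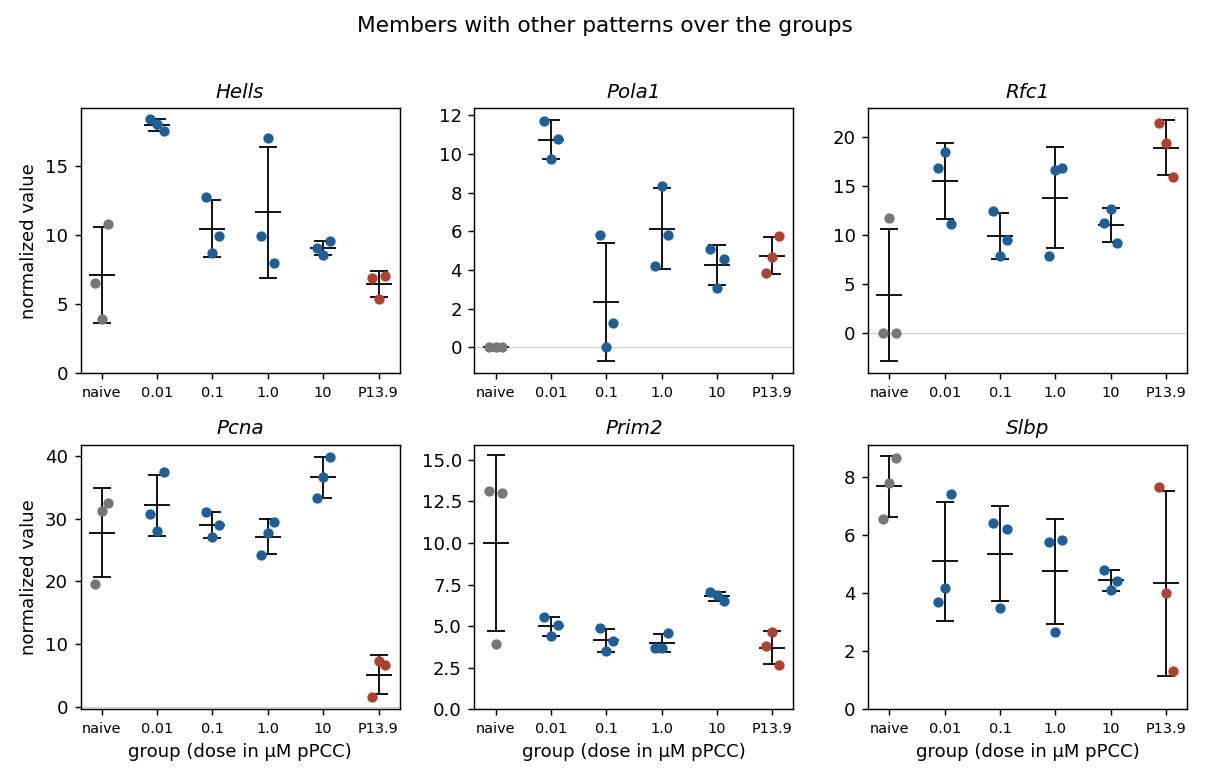
Normalized values of 6 members with other patterns, by library and group, with the mean ± SD of 3. Hells and Pola1 are highest at 0.01 µM among the doses, Rfc1 is highest by mean in P13.9, and Pcna overlaps between naive cells and most doses and is lowest in P13.9.

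Within each range of description numbers lies a pair of doses 100-fold apart. Between 1.0 and 0.01 µM no member was called in the fit of 15 libraries, where 4.30% of all genes were called in either direction and 4 members had an unadjusted p below 0.05. Rpa2 (0.80 ± 0.22, adjusted p = 0.0539) and Mcm3 (0.65 ± 0.18, adjusted p = 0.0575) came nearest. In 14 members the 1.0 µM libraries all stood above the 0.01 µM ones, as in 14.4% of genes, and in 2, Hells and Pola1, below, as in 21.3%. The fit of 12 libraries called 11 members, all higher, where 8.30% of genes were, and edgeR and DESeq2 called 10 each, all higher, where 10.7% and 11.1% of genes were. The 11 were Cdc6, Cdt1, Mcm3, Mcm5, Mcm6, Mcm7, Rpa2, Lig1, Chaf1a, Chaf1b and Dnmt1. With the P13.9 part subtracted, Cdt1, Rpa2, Chaf1a, Mcm5 and Mcm3 were called higher and Pcna, Rrm2 and Hells lower, 8 in all, where 15.9% of genes were called in either direction, so that the members' share lay near that of all genes. The members' median was 0.17 beside −0.08 over all genes, and 0.01 beside 0.01 after the subtraction.

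Between 10 and 0.1 µM no member was called by limma, where 0.0964% of all genes were, and none had an unadjusted p below 0.05. DESeq2 called 1 member, where 1.84% of all genes were called. Still 34 of 40 changes were positive, with a median of 0.22 beside −0.03 over all genes. In 13 members the 10 µM libraries all stood above those at 0.1 µM, as in 8.56% of genes, and in Gins1 and Gmnn they stood below, as in 12.4%. Cdt1 showed 60.7, 56.5 and 52.1 against 39.6, 47.9 and 35.2 (0.46 ± 0.29). Rpa1 showed 39.0, 37.7 and 37.0 against 32.0, 27.9 and 31.1 (0.31 ± 0.20). Prim2 showed 7.06, 6.85 and 6.51 against 4.88, 3.49 and 4.14 (0.60 ± 0.39). The adjusted p of each was 1.

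Over the 4 doses, 29 members had their highest mean at 10 µM, 3 had it at 1.0 µM, 5 had it at 0.1 µM and 4 had it at 0.01 µM. The lowest mean fell at 0.01 µM in 27, at 0.1 µM in 4, at 1.0 µM in 7 and at 10 µM in 3. The slope per 10-fold dose was called positive for Mcm3 (0.26 ± 0.06, adjusted p = 0.0120) and Rpa2 (0.27 ± 0.07, adjusted p = 0.0307), where 1.39% of all genes had a positive slope. No member had a called slope without library C of 0.01 µM, or without library A or B of 10 µM. The fit of 12 libraries called 14 positive slopes and that of Hells negative (−0.27 ± 0.07, adjusted p = 0.0234), where 8.89% of all genes had a positive slope and 14.2% a negative one.

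The curvature, the mean of the end doses minus that of the middle doses, was called for no member in the fit of 15, where 0.757% of genes were called and 2 members had an unadjusted p below 0.05. In the fit of 12 libraries Rpa2 (−0.35 ± 0.07, adjusted p = 0.0103) and Mcm5 (−0.32 ± 0.08, adjusted p = 0.0362) were called, where 4.85% of genes had a negative curvature. In both genes the libraries at 0.1, 1.0 and 10 µM overlapped and those at 0.01 µM lay below.

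P13.9 cells carried replication transcripts as well. In 35 members the P13.9 mean lay below that of every dose. Only Rfc1 stood above every dose by mean, at 21.5, 19.4 and 15.9 in P13.9 against 16.9, 18.5 and 11.1 at 0.01 µM and 11.3, 12.7 and 9.19 at 10 µM. With all 18 libraries in 1 fit, which covered 8179 genes, 19 members were higher at 10 µM than in P13.9 and none was lower, where 15.6% of all genes were higher. Lig1 (3.71 ± 0.33, adjusted p = 6.91e-08), Pcna (2.78 ± 0.34, adjusted p = 2.73e-06) and Mcm3 (2.10 ± 0.22, adjusted p = 3.91e-07) had the clearest differences. In this comparison edgeR called 35 members higher, where 30.3% of all genes were, DESeq2 31 where 24.6% were, array weights 31 where 23.8% were, and quantile normalization 32 where 24.2% were. Array weights also called Rfc1 lower (−0.71 ± 0.30, adjusted p = 0.0448).

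Against naive cells, 13 members were higher in P13.9, where 29.9% of all genes were, and 3 were lower, where 29.1% were. That count is near the background. The higher ones included Chaf1a (2.43 ± 0.38, adjusted p = 3.01e-05), Rfc5 (2.33 ± 0.43, adjusted p = 0.000155), Rrm2 (2.81 ± 0.56, adjusted p = 0.000292) and Rfc1 (3.08 ± 0.66, adjusted p = 0.000632). The lower ones were Pcna (−2.37 ± 0.34, adjusted p = 9.14e-06), Prim2 and Lig1. The last of these lost its call under 10 of 12 alternatives.

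A wider list of 61 genes that act in replication or its control had 52 tested members. At 10 µM against naive cells 25 were higher and 8 lower, where 24.3% and 32.8% of all genes were. Their median was 1.06. E2f1, an activator of S-phase genes, rose by 4.15 ± 0.34 (adjusted p = 8.67e-08), Exo1, a nuclease of mismatch repair, by 2.83 ± 0.29 and Tipin, a fork protection factor, by 2.40 ± 0.25. Rnaseh2b, a subunit of RNase H2, fell by 2.47 on the log2 scale (SE 0.30, adjusted p = 6.54e-06). Between 10 and 0.01 µM none of the 52 was called in the fit of 15 libraries, where 8.15% of all genes were. Their median was 0.07, beside 0.58 in the members. Of 28 tested genes of mitosis, 21 were higher and 1 lower at 10 µM than in naive cells, beside the same all-gene shares. Their median was 2.45. Between 10 and 0.01 µM 1 of them was higher, where 1.90% of all genes were. The E2F pattern stood in 39.1% of the wider list's promoters and 3.85% of those of the mitosis genes, and TTTGAA in 21.7% and 73.1%.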

How the data were processed

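Values were read for 41 members in 18 libraries. The deposited table holds a normalized signal per gene and library that the authors made by the median-of-ratios method, and the submitters' processing notes list HTSeq 0.9.1 and DESeq2, with STAR 2.6.1d, FastQC 0.11.8 and the mm10 build. For settings, annotation and counting strand, values were not given in the sources used here, so reads of overlapping antisense genes may be included. Values are whole reads divided by 1 factor per library, and 284543 of 284544 came out whole within 0.0001 reads, which gave the depths stated. The exception is no member. The 110 unnamed features held 12.4% to 15.6% of naive reads and 1.94% to 5.36% elsewhere, and were left out.

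The members, roles, gene lists and tests were chosen with earlier results of these data known. Main tests used limma 3.58.1 (lmFit, eBayes with trend) in R 4.3.3 on log2(value + 1), with adjustment over all genes kept and 11 comparisons. Of the members, the text gives all libraries for the smallest adjusted p in each role and for members that went against the majority, and some others chosen after their values were seen. The tests were also run on simulated reads, which had the same dispersion in every library and so cannot give the error rate in these data. Alternatives were edgeR 4.0.16, DESeq2 1.42.0, no filter, pseudocount 5, array weights, quantile normalization, subtraction of the P13.9 part, the 12 activated libraries alone, a replicate block and leaving out each replicate. The P13.9 share is the median ratio of 5 fibroblast markers to their P13.9 mean. Reads carry no known molecular identifiers, so counting intervals cover counting error only.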

Additional observations from a re-analysis of the deposited data

How the results depend on the processing

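No called change of a member reversed its direction under the alternatives run. The members' median curvature did, from −0.04 to 0.04 with the P13.9 part subtracted and to 0.0036 without library C of 0.01 µM, and the median of all genes at 10 µM against naive cells went from −0.07 to 0.33 with edgeR. Counts of members called against naive cells stayed within 1.5 times. Between 10 and 0.01 µM the 3 calls became 26 with edgeR, 26 with DESeq2, 26 with array weights and 18 with the 12 activated libraries alone, where 34.8%, 32.1%, 45.9% and 26.9% of all genes were called. That last count, as a result of its own, was 11 with the P13.9 part subtracted. Between 1.0 and 0.01 µM, where none was called, edgeR gave 10, DESeq2 10, array weights 10, the 12 libraries 11, pseudocount 5 gave 2 and quantile normalization 1. Over all genes these settings called 22.3%, 19.8%, 28.4%, 18.9%, 5.62% and 7.08%, so that the members' counts in either direction lay near or below that background in all but the 12 libraries. Between 10 and 0.1 µM DESeq2 and array weights gave 1 each, where 1.84% and 3.77% of all genes were called. For the dose slope the 2 calls became 21 with edgeR, 24 with DESeq2, 23 with array weights and 15 with the 12 libraries. The all-gene shares were 29.3%, 27.2%, 40.5% and 23.1% in that order. With the P13.9 part subtracted 1 slope was called, where 6.07% of all genes were. For the curvature edgeR gave 1, DESeq2 3, array weights 2 and the 12 libraries 2. Over all genes 8.41%, 7.85%, 14.4% and 7.6% were called, so the members' counts lay near or below that background. At 10 µM against P13.9 the 19 calls became 35 with edgeR, 31 with DESeq2, 32 with array weights and 32 with quantile normalization, where 58.3%, 55.3%, 61.2% and 46.7% of all genes were called. The causes were not tested, except that the fit of 12 differs by leaving out the naive libraries.

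With each replicate left out in turn, 29 to 35 members were called at 10 µM against naive cells (all genes 50.3% to 65.9%). Brackets below also give the share of all genes called. At 1.0 µM 24 to 33 were called (47.2% to 63.8%) and at 0.1 µM 26 to 31 (49.3% to 65%). At 0.01 µM it was 20 to 33 (40.4% to 59.6%). P13.9 against naive cells gave 11 to 21 (52.7% to 64.8%), and 10 µM against P13.9 gave 15 to 17 (34.3% to 36.1%). Each omission left 1 between 10 and 0.01 µM (3.79% to 5.33%) and 0 to 2 slopes (3.22% to 6.95%). It left 0 between 1.0 and 0.01 µM (1.54% to 2.78%), 10 and 0.1 µM (0.0138% to 0.0688%) and for the curvature (0.289% to 0.702%). The fit of 12 called 14 to 15 between 10 and 0.01 µM (17.8% to 21.3%). Between 1.0 and 0.01 µM it called 9 to 12 (11.1% to 20.3%).

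Whether replicate letters pair the doses is not stated. The correlation of deviations was over 0.1 in 3 of 18 same-letter pairs, with a median of −0.03. It was over 0.1 in 11 of 36 pairs with different letters, with a median of 0.03, so no pairing was seen by this measure. With a replicate block, 2 members were called between 10 and 0.01 µM, 0 between 1.0 and 0.01 µM and 1 slope. The all-gene shares were 5.53%, 2.26% and 4.32%. In the fit of 12 the block gave 14 between 10 and 0.01 µM and 11 between 1.0 and 0.01 µM, where 23.9% and 16.2% were called. No paired analysis was possible against naive cells or P13.9 because their columns carry no letters. Naive depth limits every comparison with naive cells, where 1 read is worth up to 6.55.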
